A study of Equus caballus with 6 samples.

Results

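Transcripts for the sodium pump, the epithelial sodium channel (ENaC) and the aquaporins were compared between the 2 tissues of the horse blastocyst. The genes were matched by a rule on their symbols: ATP1A or ATP1B plus a digit, SCNN1 plus a letter, AQP plus digits, FXYD plus a digit, and CFTR. Of the 12270 genes in the deposited table, 14 matched, among them 4 beta subunits of the pump, 2 FXYD proteins, 3 ENaC subunits and 3 aquaporins. CFTR is among the 18 further symbols of these families that RefSeq lists for the horse and that were not analysed here. The libraries are 3 of inner cell mass (ICM 15, 22 and 25) and 3 of trophectoderm (TE 16, 23 and 24), all from blastocysts collected on day 8 from superovulated mares, with no genotype, strain or age of the mares given. All blastocysts received Pronase, a protease mix. TE was dissected mechanically and ICM was purified by immunosurgery, which uses antibody and complement to destroy the outside cells. Tissue and isolation method therefore cannot be told apart for any result below. The labels name neither the mares nor which ICM and TE shared a blastocyst, and p-values cover only the spread among these 6 libraries.

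Trophectoderm is the first epithelium of the embryo, and it pumps fluid into the blastocyst cavity. The Na,K-ATPase, a pump of 1 catalytic alpha and 1 beta subunit on the basolateral membrane, moves sodium out of the cell toward the cavity. Sodium enters on the apical side through channels such as ENaC, built from alpha, beta and gamma subunits (SCNN1A, SCNN1B and SCNN1G), and through sodium-proton exchangers. Water follows the salt across the epithelium, in part through aquaporins. FXYD proteins are small membrane proteins that tune the pump's affinity for ions.

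The libraries held 6526212 to 10686659 reads over the genes listed. ICM 25 stood apart in Pearson correlations of log2 values across the 9436 genes tested (genes are not independent replicates). Its correlation was 0.864 and 0.895 with ICM 15 and 22, against 0.942 between those and 0.976 to 0.980 among the TE libraries. With TE 16, 23 and 24 ICM 25 reached 0.902, 0.904 and 0.897. It was thus at least as close to TE as to ICM 15 and 22, though 0.897 barely exceeded 0.895. ICM 15 and 22 correlated less with the TE libraries (0.892 to 0.934) than with each other. The labels were checked against marker lists. For trophectoderm, 8 of 10 markers were analysed, with summed levels of 40.8 to 68.7 RPKM (depth-scaled reads per kilobase) in ICM and 150 to 190 in TE, and none at 0 in any library. Epiblast markers (8 of 8) summed to 60.2 to 158 RPKM in ICM, lowest in ICM 25, and 45.5 to 73.1 in TE, where SOX2 had 0 reads in every library. POU5F1 was the largest part of these sums, at 36.0 to 102 RPKM in ICM and 33.2 to 53.6 in TE. With limma (adjusted p under 0.05), 3 of the 5 epiblast markers tested were called, all higher in ICM. Hypoblast markers (8 of 10) summed to 42.2 to 99.5 against 37.2 to 44.9 RPKM, and 1 of the 8 was called, higher in ICM. Lists for other cells gave 25.2 to 54.3 against 26.7 to 39.5 RPKM for cumulus or granulosa cells (2 of 8 genes, CYP19A1 and STAR), 4.63 to 7.14 against 3.80 to 5.96 for maternal epithelium (4 of 10), and 1.71 to 3.29 against 1.20 to 1.56 for blood cells (3 of 10, CD3E at 0 in ICM 25). The cumulus or granulosa markers FSHR, LHCGR, HAS2, FOXL2, AMH and INHA were not analysed. FOXA2 counted in both the hypoblast and the maternal epithelium list. Which cells gave these levels was not tested.

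The pump's beta subunits ATP1B1 and ATP1B3 were abundant in both tissues, while every ENaC subunit was higher in all TE libraries than in all ICM libraries. Mean ENaC levels in TE were 3.05 to 3.43 times those in ICM, and AQP5 was 3.64 times as high. None of these differences passed the test over all genes with all 6 libraries. Of the 14 genes, 9 had at least 1 RPKM in at least 3 libraries and were tested with limma on log2(RPKM + 1). At an adjusted p of 0.05, 0 of these 9 were called, where 1.87% of all genes tested were. Of the 9, SCNN1A, SCNN1B, SCNN1G, AQP5 and ATP1B3 had an unadjusted p under that level, as did 1592 of the 9436 genes. The median log2 difference of the 9, ICM minus TE, was -0.55, and that of all genes tested was -0.15. The values of the tissues did not overlap for 6 of the 14 genes. TE lay above ICM for SCNN1A, SCNN1B, SCNN1G, AQP5 and ATP1B3, a pattern found in 15.8% of all genes, and ICM lay above TE for ATP1B4, a pattern found in 9.54%. In bulk samples, fewer cells of a type and less RNA per cell cannot be told apart.

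**Figure D1:**
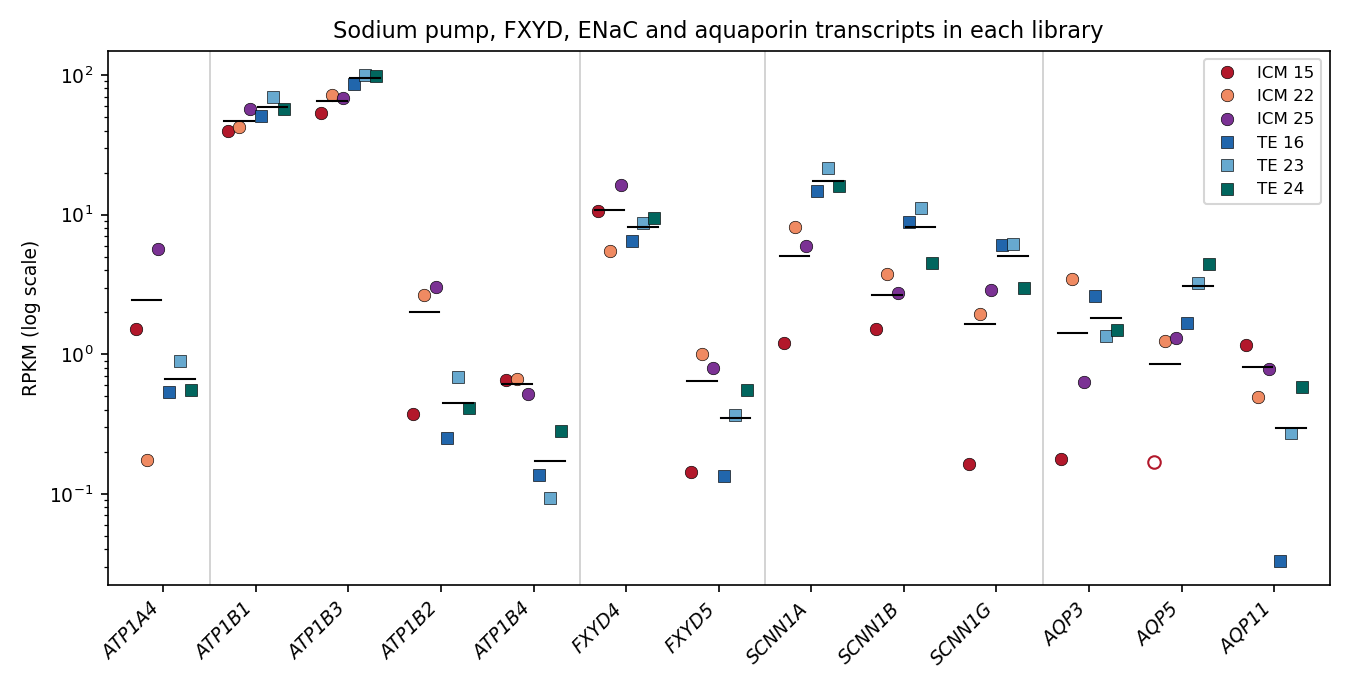
RPKM of pump, FXYD, ENaC and aquaporin genes (log scale) in the 3 ICM libraries (circles) and 3 TE libraries (squares), with bars at the group means. ATP1B1 and ATP1B3 lie between 39.9 and 99.9 RPKM in every library, above all values of the other genes drawn; the open circle for AQP5 marks 0 reads in ICM 15, drawn at the 0.168 RPKM that 3 reads would give.

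ATP1A4, the alpha subunit known from sperm, was low and uneven. It had 114, 16 and 416 reads in ICM 15, 22 and 25, and 43, 52 and 43 in the TE libraries, or 1.52, 0.18 and 5.66 RPKM against 0.54, 0.89 and 0.56. ICM 25 alone gave most of the ICM reads, and ICM 22 had the lowest level of all libraries. It was not tested, being below the filter. Alpha subunits are close paralogs, and whether a share of reads was placed in the wrong one was not tested.

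Beta subunits carry the alpha subunit to the membrane. ATP1B3 was the main one per length, at 53.1, 71.8 and 68.9 RPKM in ICM 15, 22 and 25 and 85.7, 99.9 and 98.5 RPKM in TE 16, 23 and 24. All TE libraries lay above all ICM libraries, by means of 94.7 ± 7.80 against 64.6 ± 10.05 RPKM (SD, n = 3 each). The log2 difference was -0.55 (SE 0.23, limma adjusted p = 0.28).

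ATP1B1, the beta subunit most often tied to epithelial pumps, stood at 39.9, 42.7 and 57.1 RPKM in ICM and 50.9, 70.0 and 57.2 RPKM in TE. Here ICM 25 reached the TE range, and the other ICM libraries lay below it. The means were 46.6 ± 9.21 and 59.4 ± 9.74 RPKM, with a log2 difference of -0.35 (SE 0.25, limma adjusted p = 0.53) and a 95% interval from -0.92 to 0.22. Without ICM 25 the difference was -0.50 (adjusted p = 0.13). The lengths that RPKM was scaled by, computed here from the ratio of RPKM to reads, were 912 bases for ATP1B1 (chromosome 5, 5542686 to 5564014) and 1152 bases for ATP1B3 (chromosome 16, 75972037 to 75992094). ATP1B3 exceeded ATP1B1 in each of the 6 libraries, by 1.21 to 1.72 times.

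The remaining beta subunits were scarce. ATP1B2, known from neural tissue, had 7, 60 and 56 reads in ICM 15, 22 and 25 and 5, 10 and 8 in TE, or 2.02 ± 1.44 against 0.45 ± 0.22 RPKM. ICM 15 fell within the TE range, while ICM 22 and 25 lay above it. ATP1B4, whose product in placental mammals is known as a nuclear protein of muscle rather than a pump subunit, had 18, 22 and 14 reads in ICM and 4, 2 and 8 in TE. Its levels of 0.61 ± 0.08 and 0.17 ± 0.10 RPKM did not overlap, at a depth of 54 reads in all for ICM and 14 for TE. Together these made up 1.10% to 2.80% of beta subunit RPKM in ICM and 0.28% to 0.46% in TE.

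Of the FXYD family, the gene labelled FXYD4 had 10.6, 5.49 and 16.3 RPKM in ICM and 6.42, 8.73 and 9.44 in TE. The ICM values lay on both sides of those of TE, and the log2 difference was 0.26 (SE 0.36, limma adjusted p = 0.77). This value is uncertain as a measure of FXYD4. The deposited region, chromosome 1 from 70786049 to 70814861, encloses that of HNRNPF, an RNA-binding protein gene, from 70798307 to 70799626. HNRNPF itself was at 73.8, 90.9 and 25.0 RPKM in ICM and 61.5, 61.8 and 80.5 in TE. The genes were counted separately, and ICM 25 held the highest FXYD4 value and the lowest HNRNPF value. The lengths computed here were 2443 bases for FXYD4 and 1320 for HNRNPF. Strand and the handling of overlapping regions were not stated, and whether the FXYD4 count includes reads of HNRNPF was not tested. FXYD5, known as dysadherin, had 2, 17 and 11 reads in ICM and 2, 4 and 8 in TE and was not tested.

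Of the 9 genes tested, SCNN1A had the largest log2(RPKM + 1) difference, while AQP5 exceeded it in the ratio of means, with a pseudocount of 0.1 (-2.38 against -2.11) and with voom (-2.94 against -2.12, and -2.23 for SCNN1G). SCNN1A, the alpha subunit that a working channel requires, was at 1.21, 8.10 and 5.95 RPKM in ICM 15, 22 and 25 and at 14.9, 21.4 and 16.1 RPKM in TE 16, 23 and 24. The lowest TE library lay well above the highest ICM library, and ICM 15 lay far below the rest. The reads behind these values were 59, 481 and 286 in ICM and 773, 818 and 813 in TE. Means were 5.09 ± 3.53 and 17.5 ± 3.48 RPKM (SD, n = 3 each), with a log2 difference of -1.81 (SE 0.48, limma adjusted p = 0.10) and a 95% interval from -2.91 to -0.72.

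SCNN1B, the beta subunit, was at 1.53, 3.75 and 2.73 RPKM in ICM and 8.83, 11.1 and 4.47 RPKM in TE. TE 24, the lowest TE library, lay just above ICM 22. The means of 2.67 ± 1.11 and 8.14 ± 3.38 RPKM gave a log2 difference of -1.29 (SE 0.36, limma adjusted p = 0.12).

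SCNN1G, the gamma subunit, was at 0.16, 1.94 and 2.86 RPKM in ICM and 6.03, 6.15 and 3.0 RPKM in TE. Here TE 24 and ICM 25 nearly met, and ICM 15 rested on 8 reads. The means were 1.66 ± 1.37 and 5.06 ± 1.78 RPKM, with a log2 difference of -1.31 (SE 0.45, limma adjusted p = 0.19). By the authors' coordinates (the sources used here give no build), SCNN1B (24044553 to 24067399) and SCNN1G (24157188 to 24178753) are neighbours on chromosome 13, 89788 bases apart. SCNN1A lies on chromosome 6 (33912059 to 33931097). The lengths computed for SCNN1A, SCNN1B and SCNN1G were similar, at 1991, 2081 and 1985 bases.

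Per length the subunits ranked SCNN1A, SCNN1B, SCNN1G in all 3 TE libraries and in ICM 22. In ICM 15 the beta subunit exceeded the alpha subunit, with an SCNN1A to SCNN1B ratio of 0.79 against 1.68 to 3.60 in the other libraries. In ICM 25 the gamma subunit slightly exceeded the beta subunit (SCNN1B to SCNN1G ratio 0.95, against 1.46 to 1.81 in TE). The 3 subunits summed to 2.90, 13.8 and 11.5 RPKM in ICM 15, 22 and 25 and to 29.7, 38.7 and 23.6 RPKM in TE. These ratios are descriptions and were not tested.

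**Figure D2:**
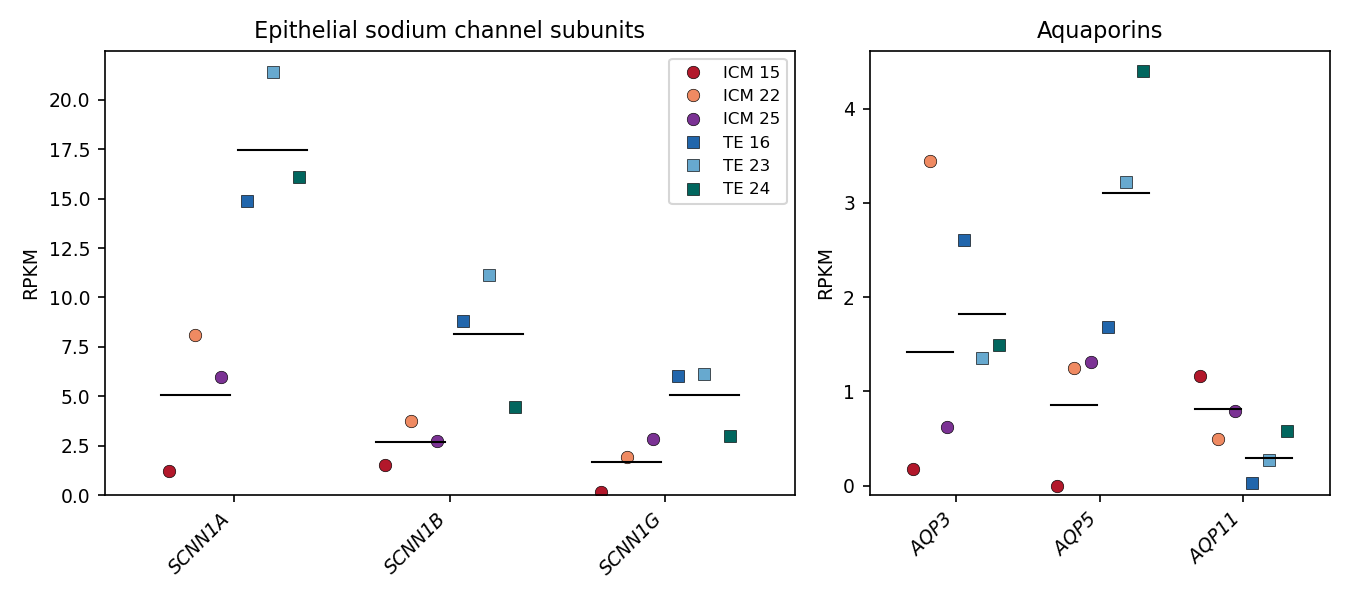
RPKM on linear axes of the 3 ENaC subunits (left) and the 3 aquaporins (right) in ICM libraries (circles) and TE libraries (squares), with bars at the group means. All TE points lie above all ICM points for SCNN1A, SCNN1B, SCNN1G and AQP5, while AQP3 and AQP11 overlap; ICM 15 is the lowest library for every ENaC subunit.

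The 8 trophectoderm markers analysed are given beside ENaC. Of these, 7 were tested, and GATA3, TFAP2A, DLX5 and GRHL1 were called higher in TE (limma), where 0.933% of all genes tested were. As a percentage of the TE mean, SCNN1A stood at 6.92%, 46.4% and 34.1% in ICM 15, 22 and 25. For SCNN1B these were 18.8%, 46.1% and 33.5%, and for SCNN1G 3.25%, 38.4% and 56.5%. GATA3, a regulator of trophoblast, stood at 5.41%, 17.9% and 13.8%, and the grainyhead factor GRHL1 at 15.0%, 34.5% and 25.9%. Of the markers not called, GATA2 stood at 10.7%, 58.4% and 38.5%, ELF3 at 23.4%, 74.1% and 27.0%, and TEAD4 at 67.1%, 75.2% and 56.5%. CDX2, below the filter, stood at 7.67%, 44.1% and 23.4%. ICM 15 held the least and ICM 22 the most of GATA3, GRHL1, GATA2, ELF3, CDX2, SCNN1A and SCNN1B. DLX5 (14.1%, 21.9% and 7.34%) and TFAP2A (11.8%, 16.1% and 19.3%) followed other orders, as did TEAD4. SCNN1G also departed from that order, with the least in ICM 15 and the most in ICM 25. The part of these marker differences in the ENaC result was not tested.

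**Figure D3:**
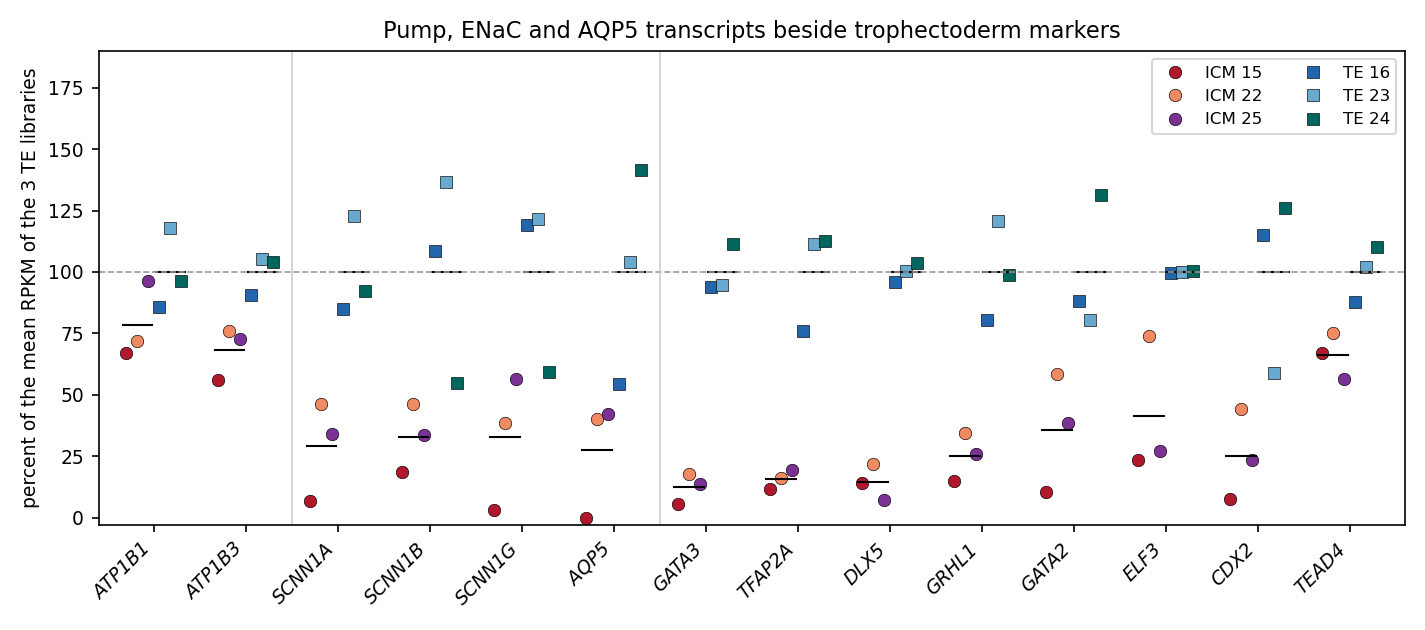
Level of each gene in each library as a percentage of the mean of the 3 TE libraries (dashed line at 100), for pump genes (left), ENaC subunits and AQP5 (middle) and the 8 trophectoderm markers (right), with bars at the group means. In ICM libraries (circles) the pump genes lie between 56.1% and 96.1%, the ENaC subunits between 3.25% and 56.5%, and the markers between 5.41% (GATA3) and 75.2% (TEAD4).

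Aquaporins were low in both tissues. AQP5, a water channel of secretory epithelia, had 0, 27 and 23 reads in ICM 15, 22 and 25 and 32, 45 and 81 in TE 16, 23 and 24. This corresponds to 0, 1.25 and 1.31 RPKM against 1.68, 3.23 and 4.39, with all TE libraries above all ICM libraries. The gene lies on chromosome 6 (67600011 to 67601519). The 0 in ICM 15 allows up to 0.168 RPKM, counting error only. Means were 0.85 ± 0.74 and 3.10 ± 1.36 RPKM, with a log2 difference of -1.19 (SE 0.39, limma adjusted p = 0.18).

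AQP3, which also passes glycerol, had 0.18, 3.45 and 0.63 RPKM in ICM and 2.61, 1.35 and 1.49 in TE. ICM 22 held the highest and ICM 15 the lowest value of all libraries, so the ICM libraries spanned those of TE (log2 difference -0.44, SE 0.46, limma adjusted p = 0.69). The difference was -1.0 without ICM 22 (adjusted p = 0.14) and -0.040 without ICM 15 (adjusted p = 0.97). Its region on chromosome 23 (49837389 to 49842485) lies inside that of NFX1, a transcription factor gene at 5.73 ± 1.72 RPKM in ICM and 7.04 ± 0.49 in TE. AQP11, an intracellular aquaporin, had 33, 17 and 22 reads in ICM and 1, 6 and 17 in TE. Its levels of 0.82 ± 0.34 and 0.29 ± 0.27 RPKM overlapped, and it was not tested.

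Calls for ENaC depended on the libraries and on the method. Without ICM 25, SCNN1A (log2 difference -2.03, limma adjusted p = 0.042) and SCNN1G (-1.66, adjusted p = 0.043) were called higher in TE, 2 of 9 where 5.62% of all genes were. With library weights, which count an outlying library for less, both were also called (adjusted p = 0.022 and 0.033), where 4.19% of all genes were, and SCNN1B missed the threshold (0.0504). Since the tissues did not overlap for any of the 3 subunits, leaving out a single library could not change the sign of their differences. Leaving out ICM 15 reduced the difference of SCNN1A to -1.20 (limma adjusted p = 0.13) and that of SCNN1G to -0.80 (0.31). Without TE 16, 23 and 24 in turn, the adjusted p was 0.29, 0.38 and 0.30 for SCNN1A. For SCNN1G it was 0.50, 0.53 and 0.30. Over all genes, these fits called 18 without ICM 15, and 0, 1 and 1 without TE 16, 23 and 24.

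The authors' deposited table, made with DESeq on counts, gave adjusted p-values of 1.67e-06 for SCNN1A, 0.00049 for SCNN1B, 0.0017 for SCNN1G and 0.036 for AQP5. These 4 of 14 were the genes past 0.05 with TE higher, where 5.93% of the authors' deposited table was. It also passed ATP1A4 (8.68e-07) and ATP1B2 (0.0037) with ICM higher, 2 of 14 where 10.7% of the table was. In the case of ATP1A4 the authors' deposited ratio of 3.71 rests mainly on ICM 25. For ATP1B1 and ATP1B3 the authors' deposited adjusted p-values were 0.47 and 0.15.

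**Figure D4:**
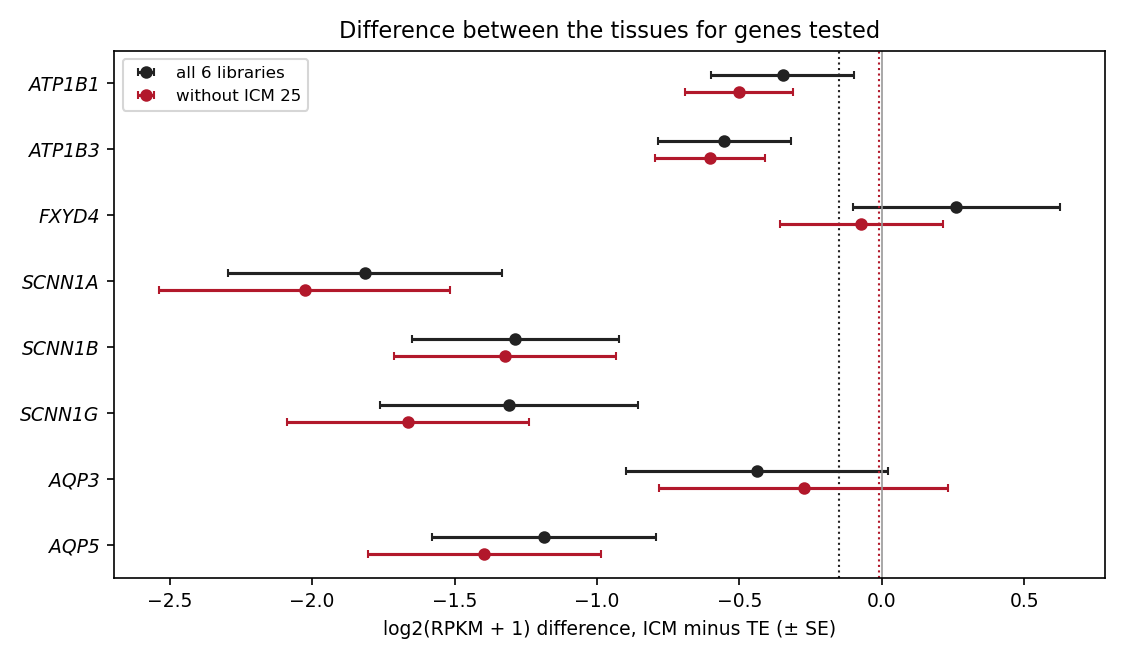
Log2(RPKM + 1) difference, ICM minus TE, with its SE, for genes tested with all 6 libraries (black) and without ICM 25 (red); dotted lines mark the median of all genes tested in each fit (-0.15 and -0.01). The ENaC subunits and AQP5 lie between -1.19 and -1.81 with all libraries, and ATP1B1 lies at -0.35.

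Genes that regulate or partner these channels and pumps formed a list of 41, of which 25 were tested. None was called (limma), where 1.87% of all genes tested were. The median log2 difference was -0.04, against -0.15 for all genes tested, and 15 of 25 were lower in ICM. SGK1, a kinase that keeps ENaC at the membrane, had the smallest p, at 2.32, 4.43 and 2.85 RPKM in ICM and 7.83, 8.46 and 7.98 in TE. Its TE libraries were tightly grouped above those of ICM (log2 difference -1.15, SE 0.26, limma adjusted p = 0.069). All TE libraries lay above all ICM libraries for 15.8% of all genes. SPINT1, an inhibitor of the membrane proteases that cleave ENaC, was at 16.4 ± 5.34 RPKM in ICM and 28.5 ± 2.88 in TE (adjusted p = 0.20). The lipid kinase PIK3C2A (18.5 ± 4.31 against 8.22 ± 0.51 RPKM, adjusted p = 0.077) and the ubiquitin ligase RNF114 (5.95 ± 2.56 against 2.60 ± 0.39, adjusted p = 0.18) lay the other way.

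ATP12A, a proton-potassium pump that can use ATP1B1 as its beta subunit, was chosen for mention after its values were seen. It stood at 7.94, 12.8 and 44.2 RPKM in ICM 15, 22 and 25 and at 39.5, 46.7 and 41.6 RPKM in TE. ICM 25 lay within the TE range and the other ICM libraries far below it. With all libraries the log2 difference was -1.30 (limma adjusted p = 0.25), and without ICM 25 it was -1.97 (adjusted p = 0.0036). Leaving out ICM 25 gave calls in both directions among the 25 genes: 3 were higher in ICM and 5 in TE, where 5.89% and 5.62% of all genes were. The 3 were PIK3C2A (limma adjusted p = 0.0069), SPTBN1 (0.013), a spectrin of the membrane skeleton, and RNF114 (0.043). The 5 higher in TE were ATP12A, USP2 (0.025), SPINT1 (0.026), SGK1 (0.029) and PRSS8 (0.036).

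Other carriers of sodium, potassium, chloride and bicarbonate formed a list of 58, with 31 tested. Their median log2 difference was -0.06, against -0.15 for all genes tested. Of these, 4 were called, 3 with higher levels in ICM and 1 in TE, where 0.933% of all genes tested were called in each direction. SLC9A3R1, the scaffold NHERF1 that anchors sodium-proton exchangers and other apical carriers, was the call in TE, at 55.4 ± 2.32 RPKM in TE against 21.0 ± 4.96 in ICM, a log2 difference of -1.38 (SE 0.24, limma adjusted p = 0.034). Among those higher in ICM were SLC38A2, which takes up amino acids with sodium (84.5 ± 34.8 against 12.4 ± 2.78 RPKM, adjusted p = 0.014), and SLC4A7, a sodium bicarbonate cotransporter (3.46 ± 0.74 against 0.40 ± 0.015, adjusted p = 0.020). The libraries of the tissues did not overlap for any of these 4 genes. They were picked by their call in the same libraries, so this adds no support. Over all genes, TE lay above ICM in 15.8% and ICM above TE in 9.54%. All 4 calls were lost without ICM 15 (adjusted p = 0.051 to 0.098) and without any 1 of the TE libraries (0.080 to 0.19). Those fits called few of the 9436 genes: 18 without ICM 15, and 0, 1 and 1 without TE 16, 23 and 24. The log2 differences kept their sign, which the lack of overlap fixed in advance. Without ICM 25, 5 of the 31 were called in each direction, against the 5.89% and 5.62% of all genes in that fit.

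Tight junctions seal the epithelium so that pumped fluid is held in the cavity. Of 29 genes listed, 19 were tested and none was called (limma), where 1.87% of all genes tested were. The median log2 difference was 0.16, against -0.15 for all genes tested, and 4 of 19 were lower in ICM. The junction adhesion molecule F11R was at 22.7, 22.5 and 27.4 RPKM in ICM and 13.8, 13.8 and 9.64 in TE (limma adjusted p = 0.10). Its ICM libraries all lay above its TE libraries, a pattern found in 9.54% of all genes. E-cadherin, CDH1, was at 86.8 ± 12.03 against 53.6 ± 5.05 RPKM (adjusted p = 0.18). PARD6B, a polarity protein, was at 14.2 ± 3.24 against 9.24 ± 1.26 RPKM (adjusted p = 0.31). CGNL1, paracingulin, was at 25.8, 37.1 and 10.1 RPKM in ICM and 7.75, 8.13 and 11.05 in TE, with ICM 25 in the TE range (adjusted p = 0.20). Without ICM 25, 2 of the 19 were called higher in ICM, where 5.89% of all genes were. They were CGNL1 (limma adjusted p = 0.0062) and F11R (0.039).

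**Figure D5:**
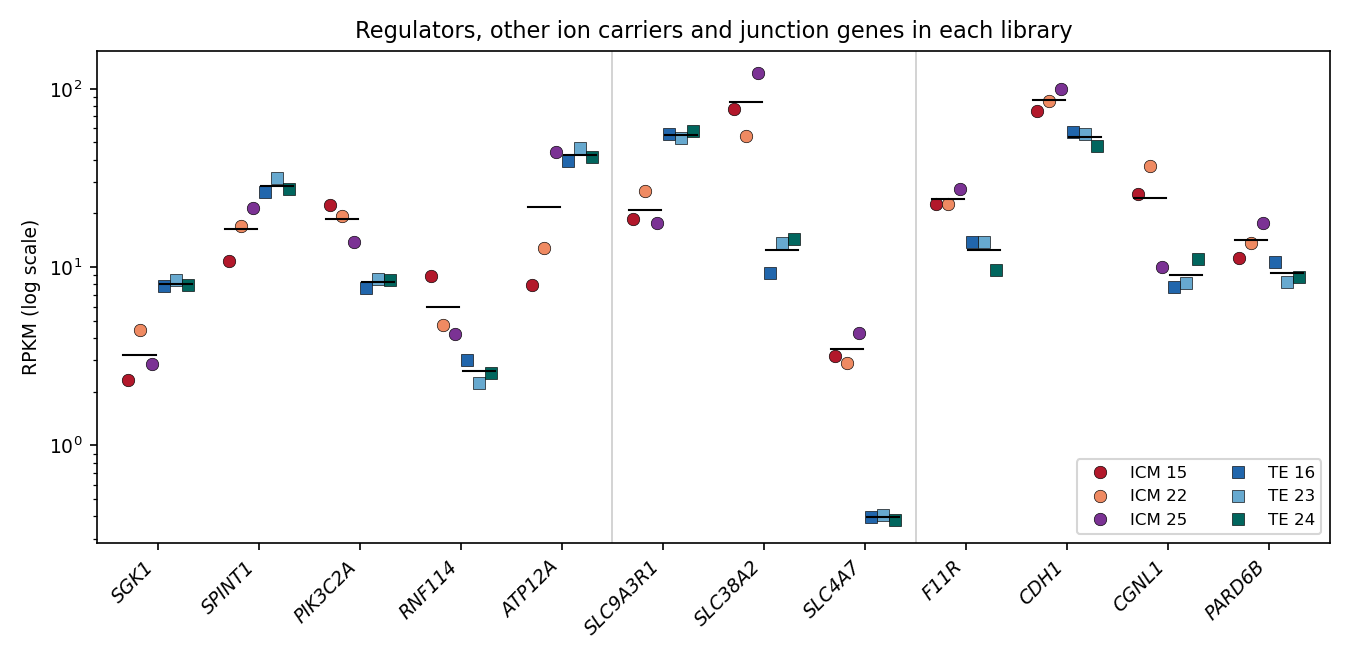
RPKM (log scale) of ENaC and pump regulators with ATP12A (left), other ion carriers (middle) and junction genes (right) in ICM libraries (circles) and TE libraries (squares), with bars at the group means. SGK1 and SLC9A3R1 lie higher in every TE library, SLC38A2, SLC4A7 and F11R in every ICM library, and ICM 25 lies among the TE libraries for ATP12A.

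The genes with the most similar pattern over the 6 libraries were found by Pearson correlation of log2(RPKM + 1), a description over few libraries of unequal depth. For SCNN1A they were SLC10A7, NISCH, TMEM165 and AKAP13 (r = 0.992 to 0.997). For SCNN1B they were GALT, an unnamed locus, PPP6R2 and GAS2L3 (r = 0.988 to 0.993). For ATP1B1 they were NDFIP2, TRAF6, GCOM1 and FOLH1 (r = 0.985 to 0.998). The r of SCNN1A with other genes of its channel was 0.927 for SCNN1G and 0.897 for SCNN1B, at ranks 272 and 473 among the genes tested, and with ATP1B3 it was 0.976, at rank 40.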

How the data were processed

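The deposited table gives RPKM per gene for 6 libraries, per the file headers. RNA was amplified with a Nugen Ovation kit, per the labels' protocols. FastQC and DESeq were used, per the submitters' processing notes. Not given in the sources used here are the aligner, counter, genome build and annotation. The authors also deposited a mean signal per gene (baseMean), a ratio between tissues, its log2 value and DESeq p-values. From RPKM and baseMean, reads were recovered as whole numbers within 0.001 for 100% of values of up to 1000 reads. Gene model lengths were computed here from the same ratio, with 1 base set by rows that are 1 unbroken block, and were whole within 0.01 base for 100% of rows. The cDNA was amplified and carries no molecular identifiers, so floors (3 reads) cover counting error only. Every row reaches 0.40 RPKM in at least 2 libraries.

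The 9436 genes reaching 1 RPKM in 3 or more libraries were fitted as log2(RPKM + 1) with limma 3.58.1 in R 4.3.3 (eBayes with trend, two-sided, Benjamini-Hochberg over all genes, threshold 0.05), without pairing, since no number occurs in both groups. This scale understates changes of low genes. The script was tested on simulated data. The members and lists were chosen with earlier results of these data known. Named from each list were genes called and the 4 with the smallest p. Alternatives covered the pseudocount, filter, scaling, library weights, voom on recovered reads, and each library left out. All 14 symbols matched RefSeq's table for assembly TB-T2T, used for names only. Values of 1 of the 14 genes and of 1 listed carrier are not reported here.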

Additional observations from a re-analysis of the deposited data

How the results depend on the processing

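With all 6 libraries, 176 genes were called, and 0 of the 9 tested genes of the pump, ENaC, FXYD and aquaporin families. The count over all genes was 112 with a pseudocount of 0.1, 114 when no filter was used, 81 when genes needed 5 RPKM and 760 with library weights. It ranged from 0 (without TE 16, 983 genes at an unadjusted p under 0.05) to 1086 (without ICM 25) with single libraries left out. Among the 9, 2 were called with library weights, and 0 to 2 with single libraries left out. The 2 were SCNN1A and SCNN1G each time. Over all alternatives run, the log2 difference lay between -2.22 and -1.20 for SCNN1A, -1.62 and -1.04 for SCNN1B, -2.23 and -0.80 for SCNN1G, -2.94 and -0.79 for AQP5, -1.15 and -0.040 for AQP3, -0.63 and -0.36 for ATP1B3, and -0.50 and -0.16 for ATP1B1. That of FXYD4 turned from 0.26 to -0.015 with library weights and to -0.071 without ICM 25, with 0.64 without ICM 22 at the other end, and the cause was not tested. The filter of 5 RPKM gave no value for SCNN1B, SCNN1G, AQP3 and AQP5. Median of ratios rescaling moved the median of all genes from -0.15 to 0.01, and SCNN1A then stood at -1.64. AQP11, ATP1B4 and FXYD5 rest on few reads, which limits their precision.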
